A study of Arabidopsis thaliana with 6 samples.

Results

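The comparison described here is that of 10 nM melatonin (MT) with the solvent control, across all genes. It used 4 of the 6 libraries of the series, 2 of MT and 2 of control, chosen by their labels, and all 24267 gene rows of the deposited count table. The plants were wild-type Arabidopsis thaliana of the Columbia strain, grown on agar medium with 3% sucrose under 16 h of light and 8 h of dark at 23 °C. Seedlings 4 days old were moved to plates with 10 nM MT or, as the control, with ethanol alone at a final 0.1%, and RNA was sequenced 72 h later. The remaining 2 libraries came from seedlings given indole-3-acetic acid (IAA), the principal auxin of plants, at 1 nM for the same time, and they entered the test as part of its estimate of the spread between libraries. The titles call the control group untreated, and the labels give the tissue as seedlings whereas the design text names rosette leaves. It is not stated whether a group's 2 libraries derive from separate plates or plants, so the p-values measure the spread between these libraries, which may be technical.

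Melatonin is an indoleamine that plants, like animals, make from tryptophan by way of serotonin. In plants it is studied as a compound that, when applied, changes root growth, leaf senescence and tolerance of cold, drought and oxidative stress, and its relation to auxin, which has the same precursor, is a recurrent question. Genes of light capture, of carbon and amino acid use, of nutrient supply, of hormone pathways and of the cell wall were followed as groups here.

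Library totals were 35953236 and 39528975 counts for MT and 36023731 and 38186518 for control. Levels are given as counts scaled to a library of 1000000 (CPM), with library sizes scaled by edgeR's TMM factors. Among genes at or above 10 CPM, the median difference between the 2 libraries of a group was 0.12 on the log2 scale for MT and 0.11 for control. Beside that close agreement, 94 genes differed by over 8-fold between the 2 libraries of at least 1 group. In the comparison of MT with control edgeR called 0 of them (12 at an unadjusted p under 0.05) and 9 were called by DESeq2. The tissue was checked with marker genes. Shoot markers summed to 27824 and 29037 CPM in the control and 27694 and 24653 CPM in the MT libraries, slightly lower with MT although 4 of 14 tested shoot markers rose. Root markers summed to 351 and 277 CPM against 309 and 305 CPM, sums that overlapped, with 1 of 20 called, CASP5 of the endodermis, as fallen. All 20 root markers reached 10 counts in at least 1 library, a low bar in libraries of this size. That count does not by itself tell seedlings from leaves. In bulk samples like these, fewer cells of a type and less RNA per cell cannot be told apart.

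Transcript levels differed between MT and control for 1633 of 21355 genes tested (7.65%) at an adjusted p under 0.05, by edgeR's quasi-likelihood test with Benjamini-Hochberg adjustment over all of them. Of these, 853 rose (3.99% of genes tested) and 780 fell (3.65%). At least 2-fold rises numbered 323 (1.51%) and at least 2-fold falls 132 (0.618%), while 88 genes rose and 27 fell at least 4-fold. In 55.5% of genes tested the MT and control libraries did not overlap, with MT higher in 27.8% and lower in 27.7%. Where called genes are said below not to overlap, they had been chosen by the test on these same libraries. The median log2 fold change was 0.83 among risen genes and -0.62 among fallen genes. Over all genes tested it was 0.0017. Calls were more frequent among strongly expressed genes. Of genes at or above 100 CPM, 15.05% were called, against 9.49% between 10 and 100 CPM, 3.66% between 1 and 10 CPM and 1.40% below that. The median standard error of the log2 fold change was 0.0946 in the first of these classes and 0.583 in the last. The risen genes together held 5.33 and 5.35% of all counts in the control libraries and 9.21 and 9.03% in the MT libraries. The fallen genes went from 8.58 and 8.79% to 5.16 and 5.52%. These shares describe genes chosen by the test on the same libraries. At the threshold, AT4G31290 (log2 fold change 0.33 ± 0.078, here and below ± its standard error) and the transcription factor gene CIB1 (1.77 ± 0.41) lay just inside. AT4G31290 was called in none of the 6 fits with 1 library left out, and CIB1 in 1 of them, with a log2 fold change of 1.16 without MT replicate 1. LRX3 of the cell wall (-0.64 ± 0.15) and AT1G78170 (-0.98 ± 0.23) lay just outside.

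**Figure D1:**
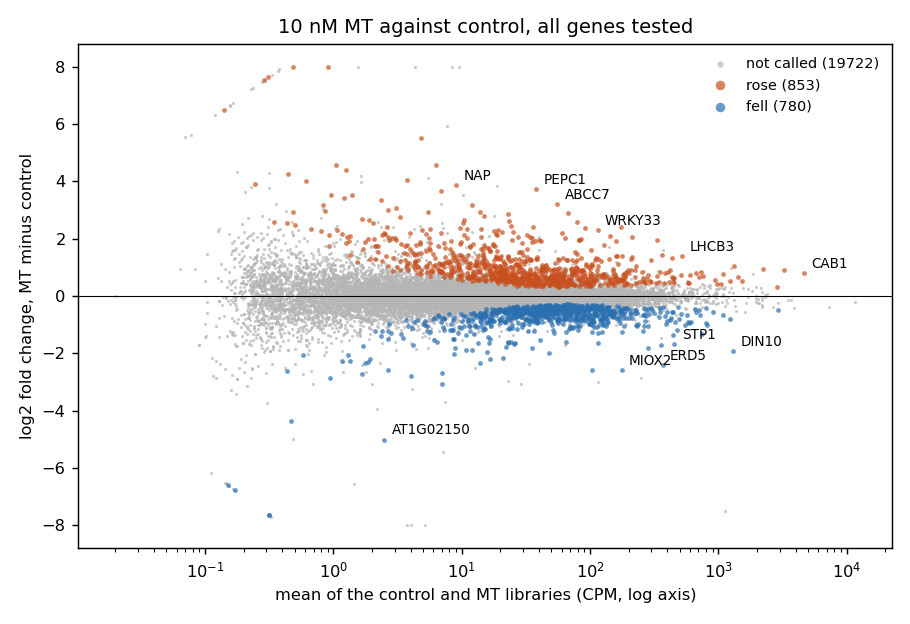
Each point is 1 of 21355 genes tested, by its mean over the 2 control and 2 MT libraries (CPM, log axis, drawn at 0.02 or above) and its log2 fold change (MT minus control, drawn at 8 where beyond it). The 853 risen genes reach larger changes than the 780 fallen ones.

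How many genes were called depended on the libraries used. Of the 1633 genes 309 (178 risen and 131 fallen) were also called in all 4 fits that left out 1 control or 1 MT library, whereas 510 were called in none. The number called was 514 or 493 when the first or the second control library was left out. It was 1088 or 1087 in the same way for the IAA libraries, and 720 or 1300 for the MT libraries. Leaving out a library leaves its group with 1 sample, which is then assumed to vary like the other groups. Where 6 counts are given below for fits with 1 library left out, they stand in that order: control replicates 1 and 2, IAA replicates 1 and 2, MT replicates 1 and 2. DESeq2 called 2905 genes, including 1623 of the 1633.

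**Figure D2:**
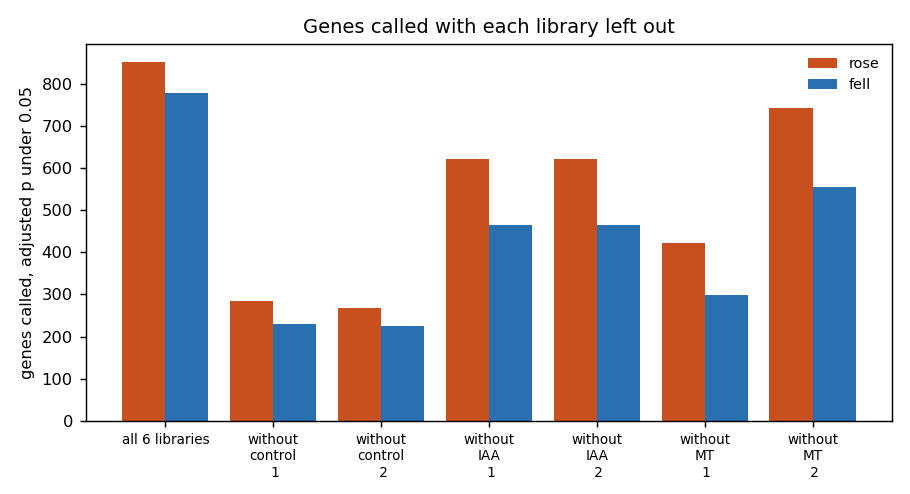
Bars give the number of genes called as risen or fallen with all 6 libraries and with each library left out in turn. Without either control library the counts drop to between 225 and 285 in each direction, and risen genes outnumber fallen ones in every fit shown.

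By fold, the largest rises were in AT4G23440, annotated as a disease resistance protein of the TIR-NBS class, in AT5G57760, in PAP5 and in NAP. The ranking took called genes averaging at least 2 CPM whose MT and control libraries did not overlap. PAP5, PEPC1, SPX3, PS2 and MGDC, 5 of the 15 largest, have roles in phosphate supply, for which no list was counted. They were put together from this ranking. No share of phosphate genes risen, fallen or not called can therefore be set beside the shares of all genes tested. AT4G23440 had 0.0280 and 0.375 CPM in the control libraries and 10.6 and 8.34 CPM in the MT libraries, a log2 fold change of 5.51 ± 0.72 (adjusted p = 0.00883). It was nearly uncounted in control replicate 1 and clearly counted in both MT libraries. PAP5, a purple acid phosphatase, had 0.559 and 0.295 CPM in control and 8.29 and 5.91 CPM with MT. PEPC1, a phosphatase of the phosphate starvation response, had 5.53 and 5.20 CPM in control and 81.5 and 60.4 CPM with MT, a log2 fold change of 3.72 ± 0.23 (adjusted p = 0.00185). For both, the lower MT library was over 10 times the higher control library. SPX3, whose protein belongs to the phosphate-sensing SPX family, rose with a log2 fold change of 3.19 ± 0.32, the pyrophosphatase PS2 (AT1G73010) with 2.89 ± 0.24, and MGDC, which makes galactolipids that stand in for phospholipids, with 2.85 ± 0.23. Outside phosphate supply, NAP, a NAC factor that promotes leaf senescence, had 1.34 and 0.991 CPM in control and 23.4 and 10.7 CPM with MT. BEE3, a basic helix-loop-helix factor of brassinosteroid response, had 2.85 and 3.59 CPM in control and 33.0 and 16.4 CPM with MT. In both genes MT replicate 1 was about 2-fold above MT replicate 2, and the groups lay far apart. ABCC7, an ABC transporter of the multidrug resistance class, had 10.7 and 11.0 CPM in control and 56.4 and 144 CPM with MT, a log2 fold change of 3.21 ± 0.41. Its gene model overlaps that of SERAT2;2, a serine acetyltransferase, which had 6.48 and 74.8 CPM in control and 0.255 and 10.01 CPM with MT and was not called. How reads were divided between them was not tested. The other genes among the 15 largest rises, with their log2 fold changes, were AT5G57760 (4.57 ± 0.89), AT3G25240 (3.68 ± 0.28), PP2-B13 of the phloem lectin family (3.34 ± 0.28), the AP2-domain factor AT1G33760 (3.09 ± 0.27), the VQ-motif gene AT1G78410 (3.02 ± 0.38) and the organic cation carrier OCT1 (2.94 ± 0.26). Of the 15 called genes named here, 12, 12, 15, 15, 14 and 15 were called with 1 library left out in turn. The fold moved by over 1.5 times when 1 library was left out for some of these genes, bringing the log2 fold change of AT4G23440 to 4.65 without control replicate 1 and 8.26 without control replicate 2, of NAP to 3.20 without MT replicate 1, of ABCC7 to 2.39 without MT replicate 2, of AT5G57760 to 5.99 without control replicate 1 and 3.85 without control replicate 2 and 3.71 without MT replicate 1. Besides ABCC7 and SERAT2;2, AT4G23440, AT5G57760, PP2-B13 and OCT1 overlap another gene model, and since counting by strand is not stated they can share reads with it.

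By fold, the largest fall under the same choice of genes was in AT1G02150. It had 5.23 and 4.47 CPM in the control libraries and 0.113 and 0.177 CPM in the MT libraries, a log2 fold change of -5.02 ± 0.53. CAX4, a cation exchanger, had 17.1 and 7.98 CPM in control and 1.16 and 1.83 CPM with MT, with the control libraries themselves about 2-fold apart. The 15 largest falls also held genes of amino acid, sugar and inositol use. MIOX2, which oxidises myo-inositol, had 273 and 334 CPM in control and 41.2 and 59.6 CPM with MT, a log2 fold change of -2.59 ± 0.19 (adjusted p = 0.00259). ERD5, the proline dehydrogenase that starts proline breakdown, had 578 and 662 CPM in control and 99.0 and 135 CPM with MT, a log2 fold change of -2.41 ± 0.17 (adjusted p = 0.00238). In both genes all MT values lay well under all control values. ASN1, the asparagine synthetase induced by dark and low sugar, had 152 and 204 CPM in control and 19.3 and 39.8 CPM with MT. DIN10, a dark-inducible gene of the raffinose synthase family, had 2002 and 2127 CPM in control and 518 and 573 CPM with MT. BCAT-2, a transaminase of branched-chain amino acids, had 24.1 and 25.98 CPM in control and 6.96 and 6.08 CPM with MT. Libraries of a group were at most about 2-fold apart in these genes, and the choice of genes required that the groups did not overlap. AT5G40250, annotated as a RING-type protein, had 23.7 and 23.01 CPM in control and 3.65 and 5.65 CPM with MT. The remaining genes of the 15 largest falls, with their log2 fold changes, were the wall enzyme XTH25 (-2.79 ± 0.51), the amino acid transporter LHT7 (-2.68 ± 0.39), ICME-LIKE2 (-2.59 ± 0.38), AT1G69030 (-2.19 ± 0.34), AT1G80320 (-2.17 ± 0.41), AT3G50560 (-2.01 ± 0.20) and AT4G21870 of the small heat shock protein class (-1.98 ± 0.21). Of these 15 called genes, 11, 11, 14, 14, 12 and 12 were called when 1 library was left out in turn. The fold moved by over 1.5 times when 1 library was left out for some of these genes, bringing the log2 fold change of CAX4 to -2.41 without control replicate 1, of ASN1 to -3.19 without MT replicate 2, of XTH25 to -3.53 without MT replicate 1, of ICME-LIKE2 to -3.23 without MT replicate 2, of AT1G80320 to -3.05 without MT replicate 1. Overlapping gene models, with which reads could be shared, are annotated for ASN1, DIN10, BCAT-2, LHT7, ICME-LIKE2 and AT1G80320.

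**Figure D3:**
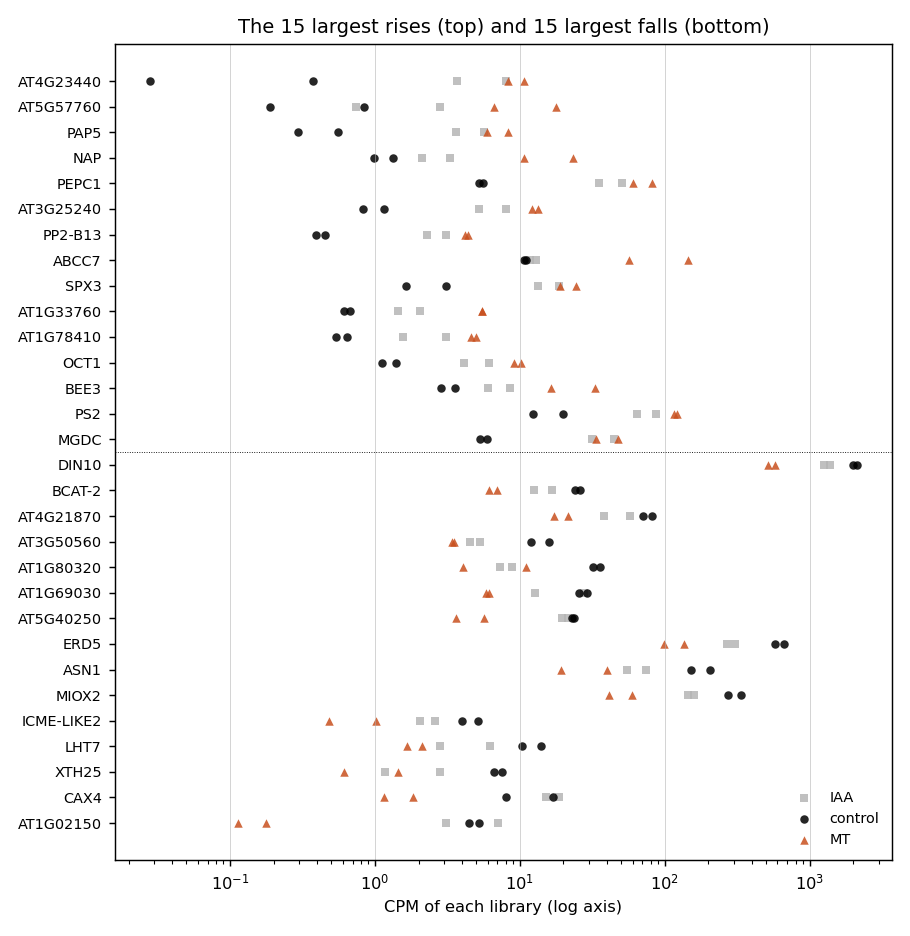
Points give the CPM (log axis) of each library for the 15 largest rises and 15 largest falls among called genes of at least 2 CPM whose MT and control libraries do not overlap. Control and MT libraries lie on opposite sides in all 30 genes by construction of the choice, and the IAA libraries are shown as levels.

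By amount of transcript, 4 of the 8 largest gains were in light-harvesting genes, CAB1, LHB1B2, LHCA4 and LHCB5, and the others were in RBCS3B, CAT3, GRP7 and THI1. CAB1, a chlorophyll-binding protein of the photosystem II antenna, had 3034 and 3702 CPM in the control libraries and 5960.1 and 5804 CPM in the MT libraries. RBCS3B, a small subunit of the carbon-fixing enzyme Rubisco, had 2386 and 2109 CPM in control and 4122 and 4411 CPM with MT. In both genes the MT libraries lay close together and above control. CAT3 (AT1G20620), a catalase that removes hydrogen peroxide, had 1402 and 1674 CPM in control and 2747 and 3158 CPM with MT. GRP7, an RNA-binding protein of the clock and of cold response, had 1129.8 and 1082 CPM in control and 1627 and 1844 CPM with MT. THI1, of thiamine synthesis, had 2514 and 2586 CPM in control and 3217 and 3162 CPM with MT. The rise of THI1 was small, with a log2 fold change of 0.32 ± 0.071, and was called with all libraries but in none of the 6 fits with 1 left out. The largest loss of CPM of any called gene was in DIN10, followed by NIA2, the main nitrate reductase, with 3333 and 3394 CPM in control and 2629 and 2204 CPM with MT. MTO3, an S-adenosylmethionine synthetase, had 1495 and 1645 CPM in control and 824 and 990.5 CPM with MT. BXL1, a beta-xylosidase of the cell wall, had 1055 and 1066 CPM in control and 412 and 436 CPM with MT, a log2 fold change of -1.32 ± 0.088 (adjusted p = 0.00223). NIA2 changed by a log2 fold change of -0.48 ± 0.10 and so lost many transcripts by a small fold. GER1 (AT1G72610), a germin-like protein, had 1021 and 1165 CPM in control and 484 and 603 CPM with MT. PATL1, a lipid-binding protein of membrane traffic, had 1021 and 1079.7 CPM in control and 522 and 566 CPM with MT. RBCS3B has near-identical copies, among which the counting could divide reads. The fits with 1 library left out called 6, 6, 8, 8, 9 and 8 of these 10 genes.

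Pathway lists and gene families differed widely in how many members were called, against 3.99% risen and 3.65% fallen among all genes tested. The shares that rose were 55.6% in the light-harvesting family, 40.0% of the ERF factors, 35.3% of the sulfur deficiency list and 35% of the cold list. The shares that fell were 66.7% in branched-chain amino acid and related catabolism, 24.0% in the sugar status list, 22.7% of tubulins and actins and 18.5% in abscisic acid signalling. The senescence list, which holds NAP, had 5 of 17 risen. Counts of risen and fallen members are edgeR's where no tool is named. Families were gathered by gene symbol or annotated product, so members under other names can be missing. These shares are descriptions, and no list was tested as a set.

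**Figure D4:**
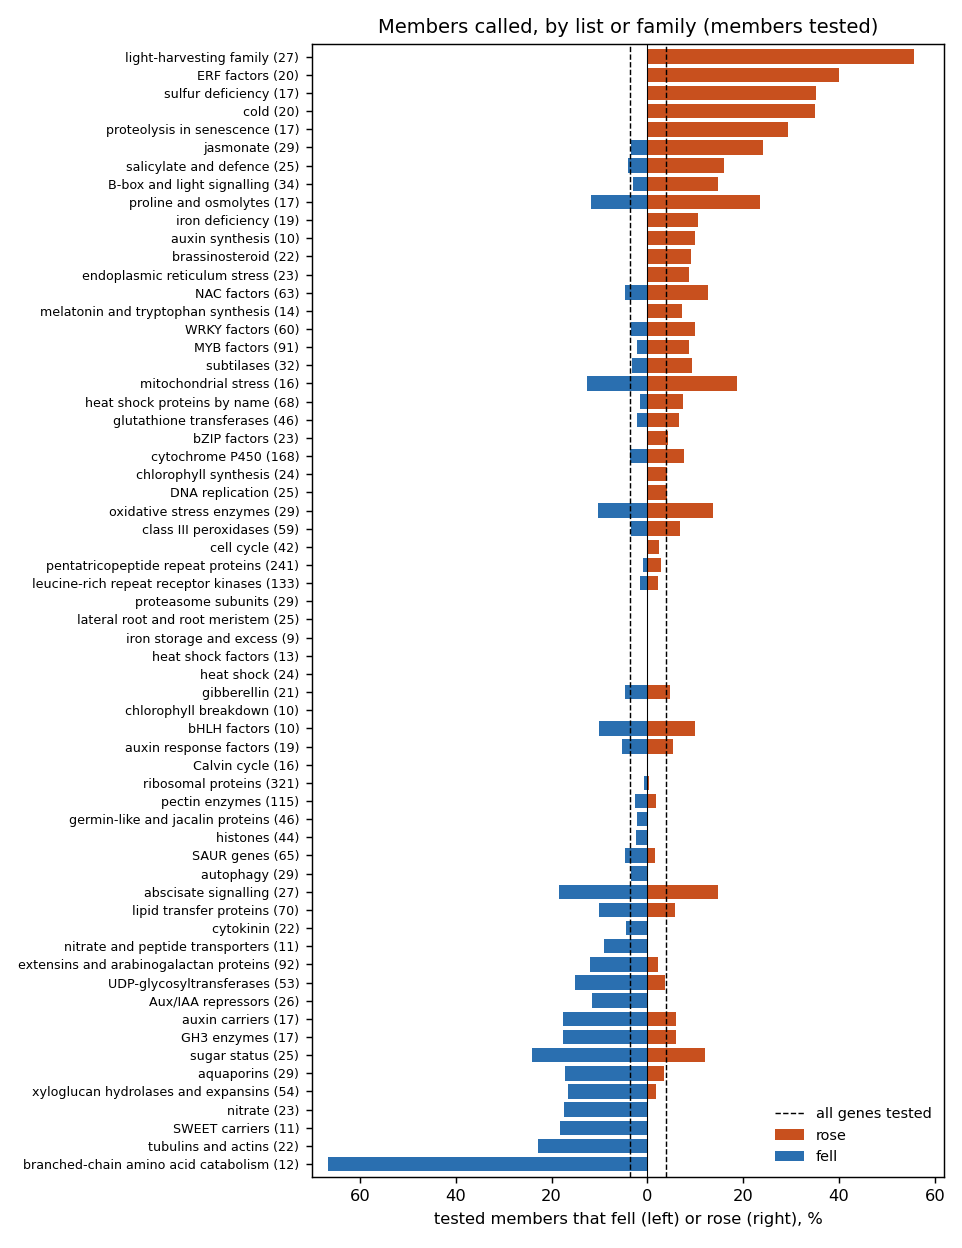
Bars give the share of tested members (%) that rose (right) or fell (left) in each list or family shown, with the number of tested members in brackets. Dashed lines mark the shares among all genes tested, 3.99% risen and 3.65% fallen. The light-harvesting family extends farthest to the right. The list labelled branched-chain amino acid catabolism, which also holds genes of related catabolism, extends farthest to the left.

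Light capture was the group with the largest share of rises. Chlorophyll-binding proteins of the light-harvesting family gather light for both photosystems. Of 27 tested members 15 rose and 0 fell (DESeq2 called 16 risen and 0 fallen, and 16 members had an unadjusted p under 0.05 in either direction), and the median log2 fold change was 0.56, against 0.0017 over all genes. When 1 library was left out, 8, 9, 15, 15, 14 and 15 members were called as risen. In the photosystem II antenna, LHCB2.3 had 24.0 and 26.03 CPM in the control libraries and 105 and 101 CPM in the MT libraries, a log2 fold change of 2.04 ± 0.11. LHCB3 had 279.7 and 297 CPM in control and 767 and 746 CPM with MT. CAB3 had 122 and 150.1 CPM in control and 525 and 529 CPM with MT. In these genes the MT values were all over 2-fold above the control values. The minor antenna proteins rose less, with log2 fold changes of 0.80 ± 0.085 for LHCB6, 0.63 ± 0.086 for LHCB4.2 and 0.53 ± 0.077 for LHCB5. LHCB4.3, a form made in strong light, had 124 and 116 CPM in control and 111 and 101 CPM with MT and was not called. In the photosystem I antenna, LHCA1 (0.85 ± 0.13), LHCA3 (0.56 ± 0.09) and LHCA4 (0.77 ± 0.084) rose, with their log2 fold changes in brackets. The photoprotective early light-induced gene ELIP1 had 5.25 and 5.33 CPM in control and 22.4 and 13.4 CPM with MT. CAB1, CAB2 and CAB3 lie next to each other and, like LHB1B1 and LHB1B2, are close copies, so the split of reads between them is uncertain, although all 5 were called as risen. The other chloroplast groups counted here had few or no rises, although RBCS3B of Rubisco, which is not among them, rose as given above. Of 16 genes of the Calvin cycle, edgeR called 0 as risen and 0 as fallen (5 at an unadjusted p under 0.05), DESeq2 called 0 risen and 4 fallen, and the median log2 fold change was -0.18. Of 24 genes of chlorophyll synthesis 1 rose (4.17%, against 3.99% of all genes tested). It was PORB, a protochlorophyllide reductase, with 268 and 312 CPM in control and 479.8 and 546 CPM with MT. Of 58 chloroplast-encoded genes tested, edgeR called 0 (2 at an unadjusted p under 0.05) and DESeq2 called 0, in libraries where they held 0.0105 to 0.0190% of counts. The summed shoot markers, whose 4 risen members CAB2, CAB3, LHCA1 and LHCA3 belong to this family, were no higher in the MT than in the control libraries, as given above. Removing each library in turn gave calls for 5, 5, 11, 11, 10 and 10 of the 11 called genes described here.

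In the light signalling list, which also holds ELIP1, 5 of 34 genes rose and 1 fell. These were 14.7 and 2.94%, against 3.99% risen and 3.65% fallen of all genes tested. PIF3, a phytochrome-interacting factor that represses greening in the dark, had 16.9 and 14.2 CPM in the control libraries and 66.1 and 51.1 CPM in the MT libraries. PIF4, its relative in warmth-driven growth, had 13.1 and 13.3 CPM in control and 38.3 and 26.5 CPM with MT. COL1, a CONSTANS-like B-box protein, had 91.0 and 97.2 CPM in control and 51.1 and 39.3 CPM with MT and was the 1 member that fell. Both factor genes were over 2-fold higher on average with MT, and MT replicate 1 was the higher of the MT libraries. The other risen members were ELIP1 and the B-box genes LZF1 (log2 fold change 0.60 ± 0.11) and STO (0.71 ± 0.14). Risen calls in this list numbered 1, 1, 4, 4, 3 and 8 with 1 library left out. Calls remained for 2, 1, 4, 4, 3 and 5 of these 5 genes when each library was removed in turn.

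Of 12 tested genes of branched-chain amino acid and related catabolism, 8 fell and 0 rose (DESeq2 called 0 risen and 9 fallen, and 10 members had an unadjusted p under 0.05 in either direction), with a median log2 fold change of -0.61. With 1 library left out, 5, 4, 7, 6, 4 and 6 were called as fallen. IVD, isovaleryl-CoA dehydrogenase of leucine breakdown in mitochondria, had 104 and 96.9 CPM in the control libraries and 48.5 and 44.6 CPM in the MT libraries. MCCA, a subunit of methylcrotonyl-CoA carboxylase in the same pathway, had 107 and 118 CPM in control and 55.7 and 54.2 CPM with MT. DIN4, a subunit of the branched-chain ketoacid dehydrogenase, had 47.4 and 47.5 CPM in control and 23.5 and 27.8 CPM with MT. In each, every MT library was under every control library, as in 27.7% of all genes tested. MCCB, the other subunit of the carboxylase, fell by less, with a log2 fold change of -0.29 ± 0.068. Besides ERD5, the list's other falls were in GDH2, a glutamate dehydrogenase, with a log2 fold change of -0.76 ± 0.13, in ETFQO, which passes electrons from this pathway to ubiquinone, with -0.54 ± 0.10, and in AT4G33150, of lysine breakdown, with -0.67 ± 0.14. Of the 7 called genes named here, 4, 3, 6, 5, 3 and 5 were called with 1 library left out in turn.

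In the sugar status list, 6 of 25 fell and 3 rose. STP1, a hexose importer repressed by sugar, had 684 and 702 CPM in the control libraries and 193 and 240.0 CPM in the MT libraries, a log2 fold change of -1.68 ± 0.13. BZO2H3, a bZIP factor of the low-energy response, had 49.9 and 52.7 CPM in control and 24.2 and 20.004 CPM with MT. Both genes were at less than 60% of control in each MT library. APL3, a subunit of the starch-forming ADP-glucose pyrophosphorylase, had 20.12 and 20.9 CPM in control and 42.6 and 54.8 CPM with MT. GPT2, the glucose-6-phosphate carrier of the chloroplast, had 7.30 and 5.9996 CPM in control and 24.8 and 55.9 CPM with MT, rises in both MT libraries with a spread of over 2-fold between them. Class II trehalose-phosphate synthase genes split. TPS7 (log2 fold change -0.67 ± 0.089), TPS10 (-0.67 ± 0.12), ATTPS6 (-0.53 ± 0.11) and TPS11 (-0.34 ± 0.078) fell and TPS5 (0.65 ± 0.094) rose. Among SWEET sugar carriers 2 of 11 fell, among them SWEET2, of the vacuole, with 32.4 and 35.2 CPM in control and 17.0 and 14.4 CPM with MT. Among autophagy genes 1 of 29 fell (3.45%), a share near that of all genes tested. It was ATG8E, with 74.4 and 85.4 CPM in control and 45.8 and 42.9 CPM with MT. Of these 11 called genes, 7, 5, 9, 9, 7 and 10 were called when 1 library was left out in turn. The fold moved by over 1.5 times when 1 library was left out for some of these genes, bringing the log2 fold change of GPT2 to 1.91 without MT replicate 2.

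Osmolyte genes moved both ways, with 4 of 17 risen and 2 fallen. ERD5 and MIOX2, which break down proline and myo-inositol, were those that fell, as given above. The risen genes act in synthesis. MIPS2, a myo-inositol-phosphate synthase, had 23.8 and 24.2 CPM in the control libraries and 40.7 and 37.0 CPM in the MT libraries. Its relative MIPS1 had 122 and 126 CPM in control and 221 and 165 CPM with MT. MT replicate 1 was the higher MT library in both. P5CS1, of proline synthesis, had 257 and 240.5 CPM in control and 379 and 323 CPM with MT. GolS2, which makes galactinol, had 1.93 and 2.06 CPM in control and 5.06 and 5.86 CPM with MT. Each of the 4 was higher in both MT libraries than in both control libraries, as were 27.8% of all genes tested. The rise of MIPS2 was called in all 6 fits with 1 library left out, and those of MIPS1 and P5CS1 in 1 fit, that without MT replicate 2. P5CS1 and MIPS2 overlap other gene models. The fits with 1 library left out called 1, 1, 2, 2, 2 and 3 of these 4 genes.

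Of genes induced by sulfur shortage 6 of 17 rose and 0 fell (DESeq2 called 10 risen and 1 fallen, and 11 members had an unadjusted p under 0.05 in either direction), at a median log2 fold change of 0.77. With 1 library left out, 4, 2, 6, 6, 3 and 5 were called as risen. APR1, which reduces activated sulfate, had 93.2 and 69.9 CPM in the control libraries and 208 and 189 CPM in the MT libraries. APR3, its relative, had 166 and 145 CPM in control and 307 and 283 CPM with MT. ATSDI1, a repressor of glucosinolate formation in sulfur shortage, had 15.8 and 12.9 CPM in control and 46.1 and 36.4 CPM with MT. In these genes control replicate 1 was above control replicate 2, and both MT libraries were above both. LSU2 and LSU3, named for their response to low sulfur, rose with log2 fold changes of 1.31 ± 0.21 and 2.13 ± 0.36. The related LSU1 had 11.1 and 0.536 CPM in control and 0.934 and 29.6 CPM with MT, a swing between replicates of both groups, and was not called. Of the nitrate list 4 of 23 fell and 0 rose (DESeq2 called 0 risen and 5 fallen, and 9 members had an unadjusted p under 0.05 in either direction), at a median log2 fold change of -0.16. Besides NIA2, they were the protein kinase gene CIPK3 (-0.60 ± 0.084), the nitrate-induced repressor LBD39 (-0.55 ± 0.092) and BT1 (-0.60 ± 0.11), a BTB-domain protein that restrains nitrate uptake. Of the iron deficiency list 2 of 19 rose (10.5%, against 3.99% of all genes tested). They were ZIF1, a vacuolar carrier, with a log2 fold change of 0.64 ± 0.11, and BHLH101, a factor of iron shortage, with 0.0559 and 0.0804 CPM in control and 1.19 and 1.14 CPM with MT. Of 9 genes of iron storage and excess, edgeR called 0 (3 at an unadjusted p under 0.05) and DESeq2 called 1 risen and 2 fallen. Removing each library in turn gave calls for 4, 2, 9, 9, 6 and 8 of the 10 called genes described here.

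Of the genes named as ERF transcription factors, linked to ethylene and stress, 8 of 20 rose and 0 fell. Their median log2 fold change was 0.98. DESeq2 called 11 risen and 1 fallen, and 13 members had an unadjusted p under 0.05 by edgeR in either direction. Related factors under other names, such as the AP2-domain gene AT1G33760, were not counted in this family. Risen calls numbered 2, 3, 7, 7, 3 and 10 with 1 library left out. ERF11 had 3.13 and 2.54 CPM in the control libraries and 22.6 and 13.0 CPM in the MT libraries. ERF6 had 6.40 and 7.26 CPM in control and 28.9 and 17.57 CPM with MT. ERF8 had 7.32 and 7.39 CPM in control and 21.9 and 16.9 CPM with MT. For each of them MT replicate 1 was above MT replicate 2, and both were above control. The same order held for ERF4, ERF2 and ERF13, which rose with log2 fold changes of 0.96 ± 0.17, 1.53 ± 0.28 and 2.55 ± 0.39. Of the WRKY factors, 6 of 60 rose (10.0%) and 2 fell (3.33%), against 3.99% risen and 3.65% fallen of all genes tested. WRKY33, required for defence against necrotrophic fungi, had 37.4 and 40.0 CPM in control and 249 and 132 CPM with MT. WRKY40, a defence repressor, had 5.76 and 7.205 CPM in control and 43.6 and 20.3 CPM with MT. WRKY53, of leaf senescence, had 3.33 and 2.9998 CPM in control and 18.4 and 14.3 CPM with MT. Here too MT replicate 1 was the higher, and the groups were over 2-fold apart. Of the NAC factors, 8 of 63 rose and 3 fell. NAC6, a senescence factor, had 7.38 and 6.45 CPM in control and 43.2 and 17.8 CPM with MT, and NAC3 (AT3G15500) rose with a log2 fold change of 1.68 ± 0.27. NAC062, a membrane-bound stress factor, had 30.9 and 33.1 CPM in control and 60.5 and 58.0 CPM with MT. NAC052, a partner of a histone demethylase, had 39.1 and 38.9 CPM in control and 7.84 and 16.5 CPM with MT and fell. NAC6 was over 2-fold apart between its MT libraries, while NAC062 was close to equal in them. Of the MYB factors, 8 of 91 rose and 2 fell. MYB51, of indole glucosinolate synthesis, had 10.12 and 9.94 CPM in control and 48.1 and 30.6 CPM with MT. MYB77, MYB73 and MYB70, of another subgroup, rose with log2 fold changes of 1.29 ± 0.12, 1.25 ± 0.21 and 0.67 ± 0.15. Calls remained for 6, 7, 17, 17, 11 and 16 of these 17 genes when each library was removed in turn. The fold moved by over 1.5 times when 1 library was left out for some of these genes, bringing the log2 fold change of WRKY40 to 1.65 without MT replicate 1, of NAC6 to 1.37 without MT replicate 1, of NAC052 to -2.31 without MT replicate 2.

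Of the cold list 7 of 20 rose and 0 fell (DESeq2 called 11 risen and 0 fallen, and 12 members had an unadjusted p under 0.05 in either direction), with a median log2 fold change of 0.71, and with 1 library left out 1, 1, 6, 6, 5 and 7 were called as risen. STZ, a zinc-finger repressor of stress responses, had 6.99 and 10.3 CPM in the control libraries and 48.8 and 33.7 CPM in the MT libraries, the largest change of the list's called genes. The membrane protein gene COR413-PM1 had 140.1 and 132 CPM in control and 213 and 201 CPM with MT. LTI78, a marker of drought and cold, had 55.1 and 60.5 CPM in control and 83.9 and 109 CPM with MT. In these genes the MT libraries lay above the control libraries without overlap, as in 27.8% of all genes tested. COR15B, which protects chloroplast membranes in frost, had 14.6 and 14.999 CPM in control and 24.2 and 34.6 CPM with MT. Its tandem copy COR15A had 11.9 and 11.0 CPM in control and 17.0 and 26.3 CPM with MT. These 4 genes after STZ rose by less than 2-fold on average. CBF1, an upstream activator of cold genes, was barely counted, with 0 and 0.187 CPM in control and 0.764 and 0.761 CPM with MT, and was not called. Of the 5 called genes named here, 1, 1, 4, 4, 4 and 4 were called with 1 library left out in turn.

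In the pathway of abscisic acid (ABA), by which plants answer drought, 4 of 27 genes tested rose and 5 fell, at a median log2 fold change of 0.09. The called genes included the 3 receptor genes of the list, which fell, and 2 of its 4 CYP707A genes of hormone breakdown, which rose. The list does not cover the whole receptor family, and receptor genes outside it were not counted. The receptor gene PYL4 had 245 and 254 CPM in the control libraries and 102 and 108 CPM in the MT libraries. PYL5 had 136 and 130.1 CPM in control and 73.6 and 60.7 CPM with MT. PYL6 had 33.6 and 36.2 CPM in control and 11.5 and 11.1 CPM with MT. They fell with log2 fold changes of -1.25 ± 0.086, -0.99 ± 0.10 and -1.62 ± 0.22. CYP707A3, an ABA 8'-hydroxylase that inactivates the hormone, had 6.23 and 8.06 CPM in control and 35.1 and 32.5 CPM with MT. Its relative CYP707A2 had 1.48 and 2.25 CPM in control and 12.4 and 6.54 CPM with MT. In these 5 genes, called on these libraries, no MT library overlapped a control library, as in 55.5% of all genes tested. Genes of the phosphatases that the receptors inhibit split, with a log2 fold change of 0.80 ± 0.15 for ABI1 and -0.44 ± 0.077 for HAB1. The dehydrin gene RAB18 (AT5G66400) fell with -0.58 ± 0.13 and the bZIP factor gene ABF2 rose with 0.40 ± 0.093, both called in none of the fits with 1 library left out. Of these 9 called genes, 4, 3, 6, 6, 6 and 6 were called when 1 library was left out in turn.

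For jasmonate, the wound and defence hormone, 7 of 29 genes rose and 1 fell, and with 1 library left out 1, 3, 6, 6, 2 and 5 were called as risen. On the synthesis side, the lipoxygenase gene LOX4 had 12.4 and 11.6 CPM in the control libraries and 58.4 and 47.6 CPM in the MT libraries. Its relative LOX3 had 18.1 and 15.3 CPM in control and 28.4 and 44.6 CPM with MT. AOS, allene oxide synthase, had 80.3 and 77.9 CPM in control and 108 and 109.8 CPM with MT. All MT values of these exceeded all control values, and those of LOX4 by over 3-fold. OPCL1, a ligase that acts on a jasmonate precursor and is not in the list, had 38.8 and 39.7 CPM in control and 90.7 and 96.0 CPM with MT. It was over 2-fold higher in both MT libraries. On the response side, the factor MYC2 rose with a log2 fold change of 0.51 ± 0.088, the repressor JAZ1 with 0.67 ± 0.13 and the defensin PDF1.2 with 0.94 ± 0.15, while TIFY7, a JAZ-type repressor, had 109 and 127 CPM in control and 70.7 and 78.8 CPM with MT and fell. For salicylate and defence, 4 of 25 rose and 1 fell. CBP60G, a calmodulin-binding activator of salicylate synthesis, had 8.47 and 10.2 CPM in control and 32.2 and 23.9 CPM with MT. FRK1, a receptor kinase marker of immunity, had 1.59 and 1.26 CPM in control and 3.90 and 3.55 CPM with MT. DMR6, which hydroxylates salicylate, had 47.5 and 43.4 CPM in control and 32.1 and 25.05 CPM with MT and fell. In CBP60G and FRK1 every MT library was over 2-fold above every control library. Outside the list, CRK10, a cysteine-rich receptor kinase, had 32.8 and 33.6 CPM in control and 142 and 118 CPM with MT, a log2 fold change of 1.97 ± 0.10 (adjusted p = 0.00165). The fits with 1 library left out called 4, 6, 10, 10, 6 and 8 of these 12 genes.

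Genes for TIR-domain immune proteins rose in a row. With the tested genes ordered by position in the TAIR10.1 annotation, the longest run of neighbours called in the same direction was of 6 risen genes from AT1G72890 to AT1G72940, the family of the TIR gene itself. In the centre of the run, AT1G72910 had 6.51 and 8.52 CPM in the control libraries and 57.2 and 24.2 CPM in the MT libraries. AT1G72920 had 3.16 and 2.81 CPM in control and 22.7 and 12.1 CPM with MT. The other 4 rose less, with log2 fold changes of 0.87 ± 0.15 for AT1G72890, 0.88 ± 0.13 for AT1G72900, 0.65 ± 0.12 for TIR and 0.80 ± 0.14 for AT1G72940. MT replicate 1 was above MT replicate 2 in all 6. A second run of 3 neighbours rose as well, with 0.60 ± 0.072 for WRR4, a resistance gene of the same class, 0.73 ± 0.16 for AT1G56520 and 0.92 ± 0.21 for AT1G56540. Members of tandem families are similar in sequence, so their counts are not independent and could be divided between copies. These runs were singled out after their values were seen. In all, 105 of 853 risen genes and 105 of 780 fallen genes had a tested neighbour called in the same direction (12.3 and 13.5%). Of all genes ordered, 7.90% had a neighbour that rose and 7.18% had one that fell. Removing each library in turn gave calls for 2, 1, 7, 7, 5 and 8 of the 9 called genes described here. The fold moved by over 1.5 times when 1 library was left out for some of these genes, bringing the log2 fold change of AT1G72910 to 1.69 without MT replicate 1.

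Growth hormone genes were called at shares on both sides of the 7.65% of all genes tested. GASA1, a gibberellin-linked small peptide of the cell wall, had 422 and 461 CPM in the control libraries and 101 and 148 CPM in the MT libraries and fell. Its relative GASA4 had 217 and 208 CPM in control and 345 and 371 CPM with MT and rose. They were the called members of 21 tested for gibberellin. Of 22 brassinosteroid genes 2 rose, BEE3 and the factor BES1 (log2 fold change 0.68 ± 0.15). Of 22 cytokinin genes 1 fell, the response regulator ARR4, with 103 and 89.6 CPM in control and 54.3 and 63.6 CPM with MT. Of the Aux/IAA repressors, which auxin both induces and destroys, 0 of 26 rose and 3 fell by edgeR (DESeq2 called 1 risen and 7 fallen, and 12 members had an unadjusted p under 0.05 in either direction). IAA19 had 11.8 and 14.9 CPM in control and 5.77 and 5.02 CPM with MT, and SHY2 and IAA16 fell with log2 fold changes of -0.66 ± 0.10 and -0.49 ± 0.079. Of the GH3 enzymes, several of which conjugate auxin, 3 of 17 fell and 1 rose. GH3.3 had 39.7 and 39.7 CPM in control and 11.7 and 13.6 CPM with MT and so was at about a 3-fold lower level. BRU6 fell with a log2 fold change of -0.85 ± 0.13 and WES1 rose with 0.80 ± 0.11. SAUR genes, small auxin-induced growth genes, counted 1 risen and 3 fallen of 65. Of the auxin carriers 1 of 17 rose, PIN7, with 61.8 and 66.9 CPM in control and 146 and 116 CPM with MT. Of the same carriers 3 fell, among them PIN3, with 189 and 228 CPM in control and 146 and 139 CPM with MT. PIN7 and PIN3 are close relatives. Of the auxin synthesis genes 1 of 10 rose, YUC5 (log2 fold change 1.25 ± 0.22). The shares called were 23.5% of GH3 enzymes, 23.5% of auxin carriers, 11.5% of Aux/IAA repressors and 10% of auxin synthesis genes. They were 9.52% for gibberellin, 9.09% for brassinosteroid, 6.15% of SAUR genes and 4.55% for cytokinin. In melatonin and tryptophan synthesis 1 of 14 rose and 0 fell (7.14% called). It was ASA1, of the first step to tryptophan, with 48.5 and 45.5 CPM in control and 66.2 and 61.2 CPM with MT. Calls remained for 6, 5, 12, 12, 5 and 10 of these 14 genes when each library was removed in turn.

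Of the families of the cell wall and surface, 2 had more members fallen than risen by a wide margin. Of the extensins and arabinogalactan proteins, glycoproteins of the wall and cell surface, 11 of 92 fell and 2 rose. With 1 library left out, 4, 6, 8, 8, 7 and 12 were called as fallen. AGP18 had 148 and 145 CPM in the control libraries and 54.8 and 66.5 CPM in the MT libraries. FLA9, a fasciclin-type member, had 372 and 342 CPM in control and 164 and 179 CPM with MT. FLA13, of the same type, had 157 and 155 CPM in control and 70.9 and 85.4 CPM with MT. In all of these the MT libraries were at less than 60% of both control libraries. FLA18, FLA2, AGP17, AGP7 and AGP12 fell with log2 fold changes of -0.75 ± 0.094, -0.64 ± 0.091, -1.08 ± 0.17, -0.81 ± 0.12 and -0.80 ± 0.16. AGP1, a classical arabinogalactan protein, had 56.0 and 48.3 CPM in control and 83.8 and 102 CPM with MT and rose. Of the xyloglucan hydrolases and expansins, which loosen the wall, 9 of 54 fell and 1 rose. XTH24 had 552 and 544 CPM in control and 144 and 189 CPM with MT. XTH33 had 24.3 and 25.3 CPM in control and 7.72 and 8.29 CPM with MT. XTH31 had 89.1 and 65.0 CPM in control and 143 and 117 CPM with MT and rose. The falls of XTH24 and XTH33 were over 2-fold in each library, and the rise of XTH31 was smaller. Other families of the wall and surface had smaller or opposite differences. Class III peroxidases had 4 risen and 2 fallen of 59, and subtilases 3 risen and 1 fallen of 32. Leucine-rich repeat receptor kinases had 3 risen and 2 fallen of 133, and pectin enzymes 2 risen and 3 fallen of 115. The shares called were 10.2, 12.5, 3.76 and 4.35% in that order, against 7.65% of all genes tested. Of the 12 called genes named here, 7, 6, 10, 10, 8 and 11 were called with 1 library left out in turn.

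Of the tubulins and actins, 5 of 22 fell and 0 rose by edgeR (DESeq2 called 1 risen and 6 fallen, and 9 members had an unadjusted p under 0.05 in either direction). ACT2, often used as a reference gene, had 1077 and 1062 CPM in the control libraries and 733 and 737 CPM in the MT libraries, a log2 fold change of -0.54 ± 0.079. TUA1, TUA3, TUA5 and TUB4 fell with log2 fold changes of -0.76 ± 0.092, -0.71 ± 0.10, -0.57 ± 0.11 and -0.40 ± 0.092. The alpha-tubulin genes TUA3 and TUA5 are near-identical neighbours, so reads may be divided between them. Water channels fell in 5 of 29 genes and rose in 1. PIP3, of the plasma membrane, had 739 and 804 CPM in control and 372 and 431 CPM with MT. TIP2;3, of the vacuole, had 38.4 and 33.5 CPM in control and 18.16 and 19.0 CPM with MT. Both genes lay at about the same fraction of control. Of the lipid transfer proteins 7 of 70 fell and 4 rose, with AT2G45180 at 711 and 776 CPM in control and 341 and 389.6 CPM with MT. Of these 8 called genes, 5, 4, 6, 6, 6 and 8 were called when 1 library was left out in turn.

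Genes of oxidative stress, mitochondria and detoxification moved in both directions. Of 29 oxidative stress genes 4 rose and 3 fell. RBOHD, the NADPH oxidase of the defence oxidative burst, had 98.1 and 99.6 CPM in the control libraries and 265 and 250.4 CPM in the MT libraries, a log2 fold change of 1.38 ± 0.079 (adjusted p = 0.00165). The glutathione peroxidase gene GPX1 had 275 and 279 CPM in control and 203 and 167 CPM with MT and fell. GPX7, of the same family, had 12.8 and 10.4 CPM in control and 6.31 and 3.98 CPM with MT and fell. The MT values of RBOHD were over 2-fold above control, and those of GPX7 were unequal. The mitochondrial dicarboxylate carrier gene UCP5 had 35.6 and 34.2 CPM in control and 82.3 and 92.1 CPM with MT. DIC2, of the same class, had 18.3 and 25.6 CPM in control and 126 and 74.2 CPM with MT. NDA1, an alternative NADH dehydrogenase, fell with a log2 fold change of -0.77 ± 0.18. Of the cytochrome P450 genes, 13 of 168 rose (7.74%) and 6 fell (3.57%), against 3.99% risen and 3.65% fallen of all genes tested. CYP71B26 had 20.24 and 19.7 CPM in control and 50.8 and 45.2 CPM with MT. CYP81F2, of indole glucosinolate modification, had 9.98 and 6.80 CPM in control and 25.4 and 24.4 CPM with MT. Both were over 2-fold above control in both MT libraries. UDP-glycosyltransferases, which attach sugars to hormones and metabolites, counted 8 fallen and 2 risen of 53. UGT74F2, a salicylate glucosyltransferase, had 168 and 161 CPM in control and 69.9 and 64.3 CPM with MT. UGT85A1 had 90.5 and 91.5 CPM in control and 30.5 and 45.0 CPM with MT. Neither gene's groups overlapped, which held for 55.5% of all genes tested. The fits with 1 library left out called 7, 7, 7, 7, 10 and 7 of these 10 genes.

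Among all genes tested 7.65% were called, and several families of basic cell functions had lower shares. Of 321 ribosomal protein genes 1 rose and 2 fell (0.935%), at a median log2 fold change of 0.071. The share called was 3.73% of pentatricopeptide repeat proteins, 2.38% of cell cycle genes, 4.00% of DNA replication genes and 2.27% of histones. Of 29 proteasome subunits edgeR called 0 (0 at an unadjusted p under 0.05) and DESeq2 called 0 risen and 0 fallen. Of 24 genes of the heat shock list edgeR called 0 (5 at an unadjusted p under 0.05) and DESeq2 called 2 risen and 1 fallen. The wider family of heat shock proteins by name had 5 risen and 1 fallen of 68 (8.82%). Of 25 genes of lateral roots and the root meristem edgeR called 0 (5 at an unadjusted p under 0.05) and DESeq2 called 1 risen and 0 fallen. A missed threshold does not show that these genes did not change. Of 23 genes of endoplasmic reticulum stress 2 rose and 0 fell (8.70%). They were the transcription factor genes NAC062 and BZIP60, the latter with a log2 fold change of 0.43 ± 0.081. BZIP60 was called in 2 of the 6 fits with 1 library left out, those without IAA replicates 1 and 2.

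**Figure D5:**
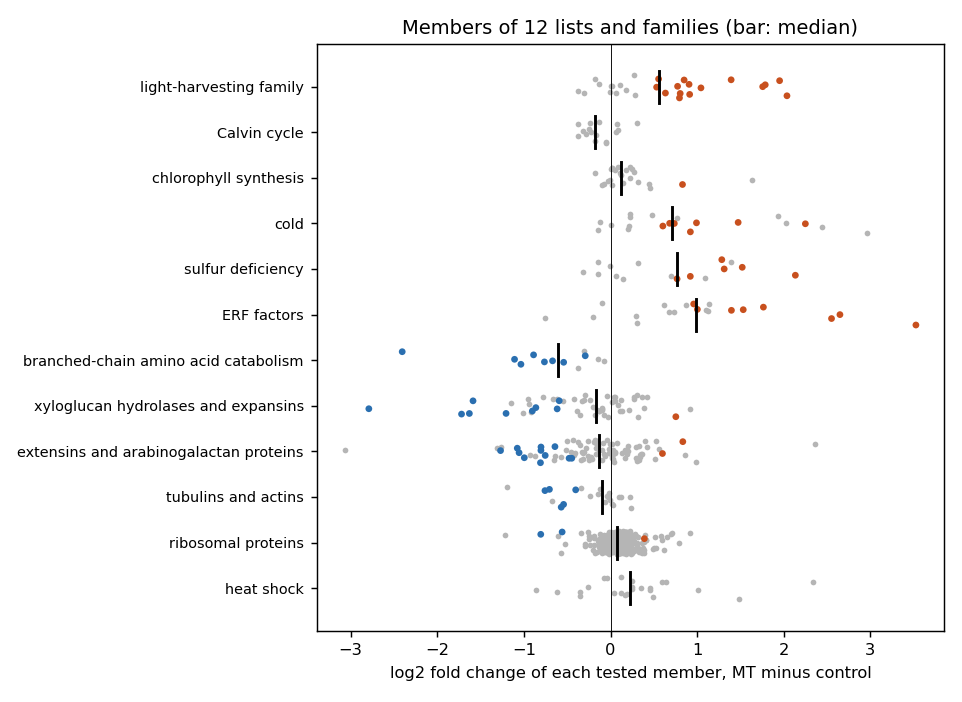
Each point is the log2 fold change (MT minus control) of 1 tested member of the lists or families shown, with called members in orange (risen) or blue (fallen), the others in grey and the median as a black bar. Light-harvesting genes lie mostly to the right of 0, branched-chain amino acid and related catabolism to the left, and ribosomal protein genes close to 0.

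Whether changes differed from those with 1 nM IAA was tested directly, at doses that were not matched. MT and IAA differed in 37 genes (0.173%), of which 19 were higher and 18 lower with MT (3707 at an unadjusted p under 0.05). Both comparisons share the MT libraries. MIOX2 had 273 and 334 CPM in the control libraries, 144 and 159.5 CPM with IAA and 41.2 and 59.6 CPM with MT, and the log2 fold change of MT over IAA was -1.59 ± 0.19, adjusted p = 0.0455. DIN10 had 2002 and 2127 CPM in the control libraries, 1258 and 1386 CPM with IAA and 518 and 573 CPM with MT (-1.28 ± 0.10, adjusted p = 0.0395). PYL4 had 245 and 254 CPM in the control libraries, 166 and 179.7 CPM with IAA and 102 and 108 CPM with MT (-0.72 ± 0.085, adjusted p = 0.0455). In all of these the IAA libraries lay between control and MT. RBCS3B had 2386 and 2109 CPM in the control libraries, 2466 and 2539.7 CPM with IAA and 4122 and 4411 CPM with MT (0.77 ± 0.088, adjusted p = 0.0455). AT5G40250 had 23.7 and 23.01 CPM in the control libraries, 19.5 and 21.4 CPM with IAA and 3.65 and 5.65 CPM with MT (-2.13 ± 0.20, adjusted p = 0.0425). In both the IAA libraries lay nearer to control than to MT. MRN1, marneral synthase of a triterpene pathway, had 19.4 and 18.5 CPM in the control libraries, 14.3 and 18.7 CPM with IAA and 4.84 and 5.32 CPM with MT (-1.70 ± 0.16, adjusted p = 0.0446). CNI1, an E3 ligase of the balance of carbon and nitrogen, had 7.35 and 6.21 CPM in the control libraries, 11.0 and 11.0 CPM with IAA and 35.1 and 25.7 CPM with MT (1.47 ± 0.17, adjusted p = 0.0455). Several of the largest rises against control were also called with IAA. Between IAA and control, edgeR called 71 of 21355 genes tested (0.332%). In PS2, AT3G25240, PP2-B13 and OCT1 the log2 fold changes of IAA over control were 2.24 ± 0.24, 2.74 ± 0.28, 2.67 ± 0.28 and 2.03 ± 0.25. Their adjusted p-values by edgeR were 0.0280, 0.0252, 0.0280 and 0.0397. The rises of 4 further phosphate genes, MGDC, PEPC1, SPX3 and PAP5, were called with IAA as well. MGDC had 5.93 and 5.30 CPM in the control libraries, 31.5 and 44.4 CPM with IAA and 47.6 and 33.6 CPM with MT, and the log2 fold change of MT over IAA was 0.10 ± 0.21, adjusted p = 0.859. PEPC1 had 5.53 and 5.20 CPM in the control libraries, 34.95 and 50.8 CPM with IAA and 81.5 and 60.4 CPM with MT (0.73 ± 0.20, adjusted p = 0.162). For MGDC the IAA and MT libraries overlapped, and for PEPC1 the IAA libraries lay below both MT libraries. SPX3 and PAP5 had log2 fold changes of MT over IAA of 0.44 ± 0.28, adjusted p = 0.479, and 0.62 ± 0.32, adjusted p = 0.376, and none of these 4 genes was among the 37. Against control, IAA gave them log2 fold changes of 2.76 ± 0.23 (MGDC), 3.00 ± 0.23 (PEPC1), 2.76 ± 0.32 (SPX3) and 3.43 ± 0.39 (PAP5), with adjusted p-values of 0.0217, 0.0217, 0.035 and 0.035 by edgeR, in a comparison that shares the control libraries. The number called between MT and IAA depended on the libraries. It was 7 and 6 without control replicates 1 and 2, 14 and 7 without IAA replicates 1 and 2, and 34 and 340 without MT replicates 1 and 2.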

How the data were processed

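RNA of Arabidopsis thaliana seedlings was sequenced in 3 groups of 2 libraries. The deposited table holds the authors' whole-number read counts per gene, not normalized, for 24267 rows, with 35953236 to 46076624 counts a library. Per the submitters' processing notes, HTSeq 0.6.1, TopHat2 2.0.12, DESeq 1.18.0 and Bowtie2 2.2.3 were used, in roles that are not specified. The genome build, the annotation and the strand setting of the counting were not given in the sources used here. Reads of overlapping or near-identical genes could therefore be shared or divided, and no coordinates or sequences are printed. Gene names came from the RefSeq table of TAIR10.1, which matched 23606 IDs.

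Counts were filtered with edgeR's filterByExpr by group, leaving 21355 genes, scaled by TMM and fitted by the quasi-likelihood test of edgeR 4.0.16 in R 4.3.3 with group as the only term. All 6 libraries shared 1 estimate of the spread, and Benjamini-Hochberg adjustment ran over every gene tested, with a threshold of 0.05. CPM values are counts scaled to a library of 1000000 after TMM. The fit was tested on simulated data. DESeq2 1.42.0, other scalings, no filter, robust empirical Bayes, a replicate block, only the libraries compared, no new-gene entries and each library left out were the alternatives. Gene-wise log2 standard errors were derived from the test, as the absolute log2 fold change over the square root of its F statistic. With 2 libraries a group an exact permutation test of 1 gene could not pass the threshold.

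The groups compared were chosen by their labels. The gene lists and families were chosen with earlier results of these data known, and some of their members and IDs were corrected after the files were read, so no list is independent evidence. The genes named were the 15 largest rises and 15 largest falls by fold with at least 2 CPM and no overlap between groups, the 8 that gained and the 8 that lost most CPM, up to 4 called members of each list by smallest p, 2 new-gene entries each way, and 2 genes just inside and 2 just outside the threshold. Further list members, the runs of neighbours, the genes over 8-fold apart within a group, those with 0 counts in a group, and CRK10, CNI1, MRN1, OPCL1 and SERAT2;2 were named after their values were seen.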

Additional observations from a re-analysis of the deposited data

How the results depend on the processing

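The median log2 fold change of all genes moved by less than 0.1 under every scaling, and the share of called genes that had risen was 51.0 to 58.6% in all fits. By DESeq2, 2905 genes were called (1492 risen, 1413 fallen), and 1225 between MT and IAA in place of 37. With only the libraries compared in the fit, the fallen genes numbered 480 and the MT against IAA calls 6. That count was 76 with no filter on low counts and 142 with robust empirical Bayes. The cause of these differences was not tested. Leaving out each library in turn gave 493 to 1300 called genes, 268 to 744 risen, 225 to 556 fallen, 170 to 362 risen at least 2-fold, 91 to 194 fallen at least 2-fold, and 6 to 340 between MT and IAA. Of 270 genes named, 109 to 212 kept their side of the threshold when 1 library was left out, and 222 to 267 under the other alternatives. Direction was kept by all but LSU1, not called in any case, whose log2 fold change of 1.40 lay between -2.63 (without MT replicate 2) and 4.83 (without control replicate 1). Deviations from the group means of libraries with the same number were correlated by 0.025 (control and IAA), 0.0074 (control and MT) and 0.079 (IAA and MT). No pairing by number was seen over all genes, but a weak pairing, or one of few genes, could be missed. With the replicate block 1325 genes were called, 1233 of them shared with the fit without it, and 12 between MT and IAA. Of genes under 1 CPM, 1.40% were called, and their median standard error of the log2 fold change was 0.583, against 0.0946 at or above 100 CPM.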

Other observations

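Further runs of neighbouring genes moved in the same direction. Around GASA1, the gene AT1G75730 fell from 32.6 and 33.1 CPM in the control libraries to 18.9 and 20.5 CPM with MT, and AT1G75760 from 48.2 and 47.6 CPM to 28.9 and 30.0 CPM. AT1G75770, the last of these 4 neighbours, fell from 8.25 and 9.70 CPM to 4.61 and 4.94 CPM. A run of 3 that fell held GTL1, a trihelix repressor of trichome growth, at 173 and 178 CPM in control and 124 and 121 CPM with MT. A run of 3 that rose held CRK10 and CRK11 of the cysteine-rich receptor kinases, next to EP1. The share of genes called by chromosome lay between 7.43 and 8.20%. Of 41 genes encoded in mitochondria edgeR called 0, with 4 at an unadjusted p under 0.05, and 0 were called by DESeq2.

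The table holds entries named as new genes, which no annotation here describes. Of 281 tested 4 rose and 6 fell (3.56% called). Arabidopsis_thaliana_newGene_709 had 1.87 and 2.49 CPM in control and 9.25 and 8.75 CPM with MT, and it had 9.06 and 11.3 CPM with IAA. Arabidopsis_thaliana_newGene_256 had 3.801 and 4.71 CPM in control and 7.38 and 8.11 CPM with MT. Both were higher in every MT library than in every control library, as were 27.8% of all genes tested. Arabidopsis_thaliana_newGene_741 had 5.93 and 4.37 CPM in control and 2.15 and 1.55 CPM with MT. Arabidopsis_thaliana_newGene_552 had 2.82 and 4.07 CPM in control and 1.22 and 1.37 CPM with MT. Both fell, and their groups did not overlap, with MT the lower as in 27.7% of all genes tested.

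Called genes included 9 with no count in either library of a group, for which no fold is given. RRA2 had 0 counts over the 2 control libraries and 136 over the 2 MT libraries. The phosphate transporter gene PHT1;7 had 0 and 47 counts, and the purple acid phosphatase gene PAP23 had 0 and 43. AT1G13410 and AT2G41231 also had 0 in control, with 73 and 21 counts with MT. All 5 were counted in both IAA libraries. In the other direction, PAP85 and ADPG1 had 46 counts each in control and 0 with MT, AT1G64561 had 25 and 0, and AT1G28000 had 22 and 0. These 4 genes were at under 1 CPM in each control library.

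Among genes of at least 5 CPM, 94 were over 8-fold apart between the 2 libraries of a group (on values with 0.1 CPM added), 42 of them in control, 36 in IAA and 52 in MT. RING1A, of a Polycomb complex, had 11.9 and 4477 CPM in the control libraries, 9.06 and 55.1 CPM with IAA and 12.3 and 12.5 CPM with MT. BRI1, the brassinosteroid receptor, had 212 and 213 CPM in control, 21.5 and 213 CPM with IAA and 193 and 19.4 CPM with MT. FAD2, the oleate desaturase, had 758 and 121 CPM in control, 859 and 9.54 CPM with IAA and 116 and 5.50 CPM with MT. In FAD2 replicate 1 was the higher in every group, whereas in BRI1 the low library was replicate 1 with IAA and replicate 2 with MT. ATPC1, a subunit of the chloroplast ATP synthase, had 81.8 and 828 CPM in control, 709 and 13.9 CPM with IAA and 49.8 and 802 CPM with MT. Overlapping gene models were annotated for 28.7% of the 94 genes and for 30.3% of all genes tested. What sets these values apart was not tested.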
